A study of Saccharomyces cerevisiae with 29 samples.

Results

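Small protein genes are the genes of budding yeast (Saccharomyces cerevisiae) whose coding sequence is shorter than 85 codons, the stop codon counted. They were chosen from the annotation of L03, the reference sequence of the strains, as genes with an annotated mRNA whose coding exons sum to less than that length. Of 227 such genes, 13 cytosolic ribosomal protein genes (names starting with RPL or RPS), 2 reading frames that the annotation calls dubious, and the truncated LEU2 and YIL014C-A were left out. This left 210 of 5857 genes, or 3.59%. They held 37267 bp of coding sequence, which is 0.427% of the coding sequence of all genes. Length chose the members, so the lengths below are a description. Mid-length genes, from 85 codons to below 510 bp (634 genes), and long genes, of 510 bp or more (4998 genes), served for comparison, and they include ribosomal protein genes, and the long genes 89 retrotransposon genes, unless stated otherwise.

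The study behind this reference made 29 libraries of 14 strains by HydEn-seq, in which alkali cuts genomic DNA at incorporated ribonucleotides and the resulting 5′ ends are sequenced. The 16 libraries without RNH201, the catalytic subunit gene of RNase H2, came from pol2-M644G rnh201-delta (4), pol2-M644L rnh201-delta (2), pol3-L612G rnh201-delta (2), pol3-L612M rnh201-delta (2), pol1-Y869A rnh201-delta (3), pol1-L868M rnh201-delta (1) and rnh201-delta (2). The 13 libraries with RNH201 came from pol2-M644G (3), pol2-M644L (2), pol3-L612G (2), pol3-L612M (1), pol1-Y869A (2), pol1-L868M (1) and WT (2). The pol2, pol3 and pol1 alleles alter the catalytic subunits of DNA polymerases epsilon, delta and alpha. End counts were not analysed here, so no value below belongs to a library and no strain is compared with another. All coordinates are on L03 (ref_v2).

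Small proteins often work as accessory subunits at the edge of large membrane or nuclear complexes, as metal carriers, as secreted peptides or as inhibitors that bind a single enzyme. Their genes are hard to tell from chance reading frames, because short open stretches are common in any genome. In yeast, genes added after the first systematic annotation received the name of a neighbouring reading frame plus a letter, as in YMR175W-A.

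The median coding length was 186 bp (95% interval 177 to 195 bp, n = 210), and the median protein had 61 residues. The shortest was YJR151W-A, of unknown function, with 51 bp and 16 residues. YOR302W had 78 bp and 25 residues and encodes the arginine attenuator peptide upstream of CPA1, a small subunit gene of an enzyme of arginine synthesis. YAR035C-A had 81 bp, and YHL015W-A and YJL136W-A had 84 bp each. Just inside the limit lay COX12, a subunit of cytochrome c oxidase, with 252 bp and 83 residues, and SBH1 and KTI11 with 249 bp each. Just outside it lay YCL001W-B, STF2 and YMR122W-A with 85 codons and 84 residues each. In 209 of 210 genes the coding length was the one that the stated protein requires. The exception was YML100W-A, with 175 bp for 57 residues, 1 bp more than required.

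Gene symbols were scarce among the small protein genes and grew more common with length. Of the 210 genes, 56 carried a symbol (26.7%, interval 20.8 to 33.2%), against 466 of 634 mid-length genes (73.5%, 69.9 to 76.9%) and 4191 of 4998 long genes (83.9%, 82.8 to 84.9%). Within the small protein genes the share was 6 of 56 below 150 bp (10.7%, 4.03 to 21.9%), 17 of 66 from 150 bp to below 200 bp (25.8%) and 33 of 88 from 200 bp (37.5%, 27.4 to 48.5%). Intervals are exact Clopper-Pearson 95% intervals for shares and binomial order-statistic 95% intervals for medians. They treat genes as independent, which neighbours and copies are not, and describe features on 1 sequence.

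**Figure D1:**
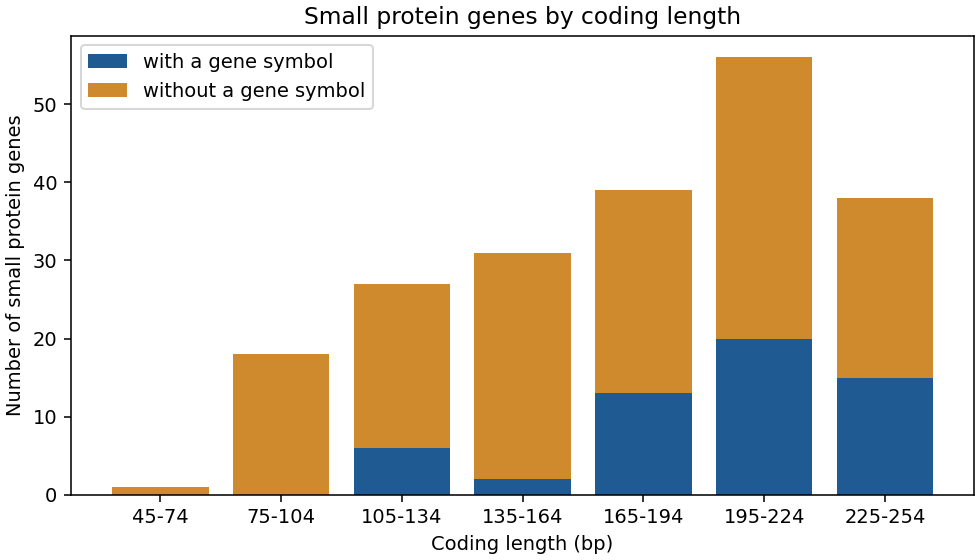
Number of small protein genes (y axis) in 30-bp classes of coding length in bp (x axis), stacked by whether the gene carried a symbol. No gene below 105 bp carried a symbol, and 15 of the 38 genes of 225 to 254 bp did.

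Having a symbol and having a qualifier of experimental evidence on the coding sequence were the same thing in this file. Over all 5857 genes, 4727 had both, 1130 had neither and 0 had one without the other. The qualifier therefore adds no evidence of its own beside the symbol. Letter suffixes in the systematic name stood on 177 of the 210 small protein genes (84.3%), against 84 of 634 mid-length genes (13.2%) and 90 of 4998 long genes (1.80%). Without retrotransposons, 20 of 4909 long genes had one (0.407%). Among small protein genes with a symbol 28 of 56 had the suffix (50%), and among those without a symbol 149 of 154 had it (96.8%).

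The 56 genes with a symbol fell into 11 product classes, with the mitochondrial respiratory chain and ATP synthase the most numerous. That class held 11 genes with a median of 207 bp. COX9 (180 bp), COX7 (183 bp), COX8 (237 bp) and COX12 encode subunits of cytochrome c oxidase, and COX14 (213 bp) and COA2 (207 bp) encode factors for its assembly. ATP18 (180 bp), ATP15 (189 bp) and ATP19 (207 bp) encode subunits of the ATP synthase, and QCR9 (201 bp) and QCR10 (234 bp) subunits of the cytochrome bc1 complex. A further 5 genes served other mitochondrial tasks. TOM5 (153 bp), TOM7 (183 bp) and TOM6 (186 bp) encode small subunits of the import channel of the outer membrane, MRPL39 (213 bp) encodes a protein of the mitochondrial ribosome, and SOM1 (225 bp) acts in the processing of inner membrane proteins.

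Copper handling held 5 genes. CUP1-1 and CUP1-2 encode the copper-binding metallothionein and had 186 bp each, at 212542 to 212727 and 214540 to 214725 on the minus strand of chromosome VIII, with starts 1998 bp apart. CRS5 (210 bp) encodes a second metallothionein, and COX17 (210 bp) and ATX1 (222 bp) encode copper chaperones that deliver copper to the mitochondrion and to the secretory pathway. In the RefSeq table of the S288C genome, CRS5 was the 1 member listed as a pseudogene.

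Membranes of the secretory pathway, the plasma membrane and the vacuole accounted for 13 genes. OST4, a subunit of the oligosaccharyltransferase that attaches sugar chains to nascent proteins, was among the shortest genes with a symbol, with 111 bp and 36 residues at 38426 to 38536 on chromosome IV. NCE101 (162 bp) acts in secretion without a signal sequence, YSY6 (198 bp) encodes a protein similar to mammalian RAMP4, which acts in secretion, and ERI1 (207 bp) acts in the making of membrane anchors. TSC3 (243 bp) acts in sphingolipid synthesis. SSS1 (243 bp) and SBH1 encode the small subunits of the Sec61 translocation channel. PMP1 (123 bp) and PMP2 (132 bp) encode proteolipids that regulate the plasma membrane proton pump. PMP3 (168 bp) and SNA2 (240 bp) encode other small membrane proteins. VMA9 (222 bp) encodes a subunit of the vacuolar proton pump and VMA21 (234 bp) a factor for its assembly.

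The nuclear class held 9 genes with a median of 213 bp. NOP10 (177 bp) is part of the H/ACA particles that modify ribosomal RNA. RPB10 and RPC10 (213 bp each) encode subunits shared by the RNA polymerases I, II and III. TFB5 (219 bp) belongs to the transcription and repair factor TFIIH, HSK3 (210 bp) and DAD4 (219 bp) to the DASH complex of the kinetochore, SMX2 (234 bp) to the Sm ring of the spliceosome and HTL1 (237 bp) to the RSC chromatin remodeller. HUG1 (207 bp), on chromosome XIII at 158764 to 158970, encodes an inhibitor of ribonucleotide reductase, the enzyme that makes deoxyribonucleotides. Its downstream neighbour on the same strand was SML1, another inhibitor of the same enzyme, after a gap of 416 bp.

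The other named genes were peptides, modifiers, inhibitors and stress genes. MFA1 (111 bp, chromosome IV, 1385079 to 1385189) and MFA2 (117 bp, chromosome XIV, 352369 to 352485) encode precursors of the mating pheromone a-factor. RUB1 (234 bp) and HUB1 (222 bp) encode ubiquitin-like proteins. PAI3 (207 bp) and PBI2 (228 bp) encode inhibitors of the vacuolar proteinases A and B. The stress and cell wall class held PAU9 (129 bp) and PAU7 (168 bp) of the seripauperin family, HOR7 (180 bp), DDR2 (186 bp) and SIP18 (240 bp). TMA7 (195 bp) encodes a protein that associates with ribosomes, and KTI11 acts in diphthamide synthesis.

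Lists of complexes and families place the small protein genes beside their longer partners. The lists were written with the members known. Some, such as copper handling and the list labelled plasma membrane proteolipids, gather genes around members, so how many lists hold a member follows largely from their choice. That label is loose, as the list joins PMP1, PMP2 and PMP3 with SNA2, SNA3 and SNA4. Small protein genes supplied 37 of 139 entries in 18 lists, with at least 1 entry in 16 lists. The lists hold genes of the 16 nuclear chromosomes alone, so subunits encoded in mitochondrial DNA are not counted. Of the 10 listed nuclear genes for subunits of cytochrome c oxidase 5 were small protein genes, the others being of mid length. This count includes YDR119W-A (201 bp), which has no symbol in the L03 file and is COX26 in the RefSeq table. Copper handling had 5 of 7, the list of PMP and SNA genes 4 of 6, the outer membrane import complex 3 of 7 and the ATP synthase 3 of 14. TFIIH had 1 of 10, and its remaining 9 subunits all had 510 bp or more. The small TIM chaperones of the mitochondrial intermembrane space had 0 of 5 and lay just past the limit, from 264 to 330 bp. SF3b of the spliceosome had 0 of 6, and its shortest subunit had 258 bp.

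**Figure D2:**
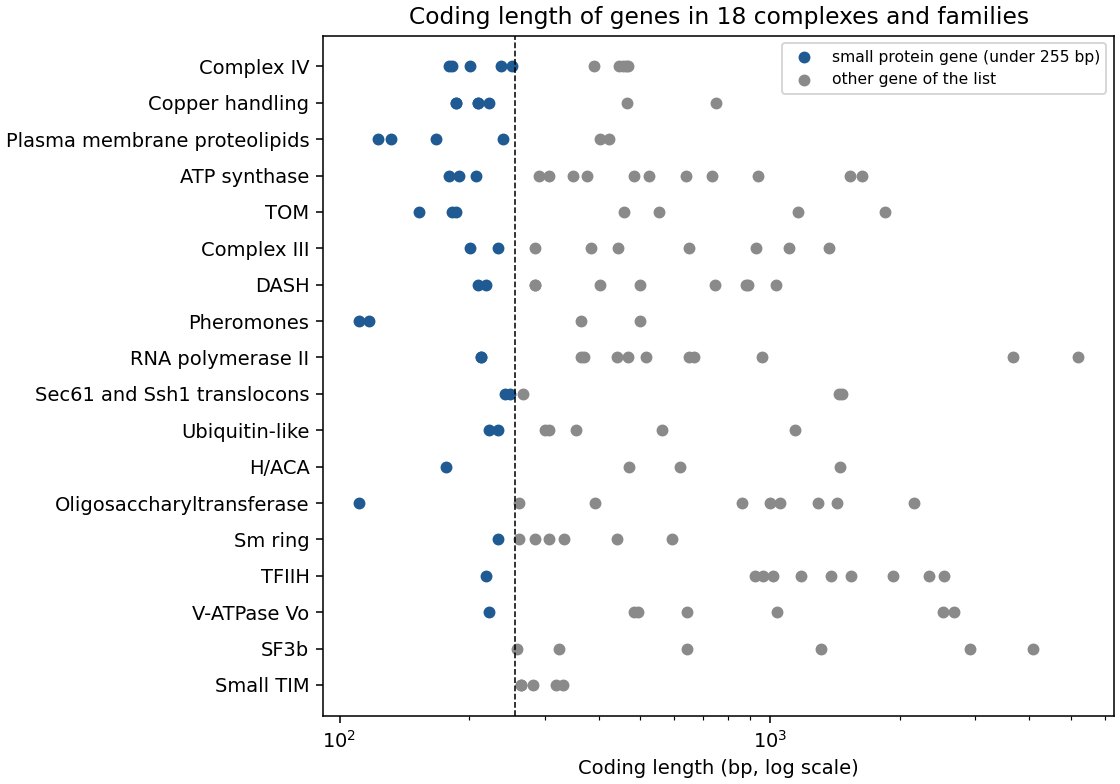
Coding length in bp (x axis, log scale) of each gene of 18 complexes and families (y axis), with small protein genes in blue and other genes in grey, and a dashed line at the limit of 85 codons. The single small TFIIH subunit, at 219 bp, is separated from the other 9 by a wide gap, while the small TIM genes sit between 264 and 330 bp.

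The 154 genes without a symbol had a median coding length of 171 bp (interval 159 to 189 bp), against 207 bp (189 to 213 bp) for the 56 with one. Their product texts differed in the evidence they name. For 43 genes the text said no more than that the function is unknown (median 189 bp). It named fungal homology together with RT-PCR for 32 (169.5 bp), gene trapping for 27 (150 bp), expression profiling with mass spectrometry for 16 (163.5 bp), other homology or genome comparison for 13 (219 bp), localisation of a GFP fusion for 8 (199.5 bp) and SAGE for 5 (96 bp), with 10 of other wording (219 bp). Of the 27 gene-trapping genes 8 lay within 25 kb of a chromosome end, against 16 of all 210 small protein genes (7.62%), 57 of 634 mid-length genes (8.99%) and 227 of 4998 long genes (4.54%). The 8 are themselves among the 16. Gene trapping had the most of any group and was not chosen beforehand. Fungal homology with RT-PCR had 2 of 32, and texts of unknown function alone 2 of 43.

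Names given in the RefSeq table split the unnamed genes further. Of 210 small protein genes 208 matched it by locus tag, and 30 of the 152 matched genes without a symbol had one there (19.7%, 13.7 to 27.0%), against 75 of 166 mid-length genes (45.2%, 37.5 to 53.1%) and 404 of 806 long genes (50.1%, 46.6 to 53.6%). Among the 30 were YHR199C-A, which is NBL1, a subunit of the chromosomal passenger complex of mitosis, YIL156W-B, which is ATG44, a factor of mitochondrial fission during mitophagy, and YDL160C-A, which is MHF2, a histone-fold partner of a DNA repair helicase. YDR379C-A is SDH6, an assembly factor of succinate dehydrogenase, YCR075W-A is EGO2, a subunit of the EGO complex that regulates the kinase complex TORC1, and YMR194C-B is CMC4, a cysteine-rich protein of the mitochondrial intermembrane space. With them 86 of 210 small protein genes (41.0%, 34.2 to 47.9%) had a symbol in either source. The 30 had a median of 214.5 bp, and the 124 genes with no symbol in either source had 163.5 bp. These 30 genes and the 6 given here by role were singled out after their values were seen.

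Introns were present in 9 of 210 small protein genes (4.29%, 1.98 to 7.98%). Outside ribosomal proteins and retrotransposons, coding sequences in more than 1 piece made up 50 of 565 mid-length genes (8.85%, 6.64 to 11.5%) and 126 of 4859 long genes (2.59%, 2.16 to 3.08%). The interval of the small protein genes overlaps both. All 9 genes had a symbol in either source, 9 of 86 (10.5%, 4.90 to 18.9%), against 0 of 124 genes with no symbol in either, which allows a share of up to 2.93%. Of the 13 left-out ribosomal protein genes below 85 codons, 5 had an intron.

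The 9 genes showed short introns and, in several, a very short first coding exon. QCR9, on chromosome VII at 858977 to 859390, had a first coding exon of 3 bp, the start codon alone, then an intron of 213 bp that took up 51.4% of the gene, and a second exon of 198 bp. QCR10, in the same complex, had exons of 6 and 228 bp around an intron of 63 bp, and YIL156W-B (ATG44) exons of 9 and 213 bp around one of 62 bp. VMA9, on chromosome III at 105368 to 105762, was the 1 gene with 3 coding exons, of 11, 81 and 130 bp, separated by introns of 77 and 96 bp. NCE101 and YPR010C-A (MRA1) had introns of 143 bp each after exons of 32 and 33 bp. YHR199C-A (NBL1) had an intron of 67 bp, YMR194C-B (CMC4) of 72 bp and RUB1 of 73 bp. RUB1 was the 1 gene whose first exon, of 149 bp, was longer than its second, of 85 bp. The median total intron length was 73 bp, against 411 bp in the 5 short ribosomal protein genes with an intron and 98 bp in the 50 mid-length genes outside ribosomal proteins and retrotransposons. Short first exons were not particular to the 9 genes. Their median first coding exon was 32 bp, against 3 bp and 38 bp in those 2 groups.

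**Figure D3:**
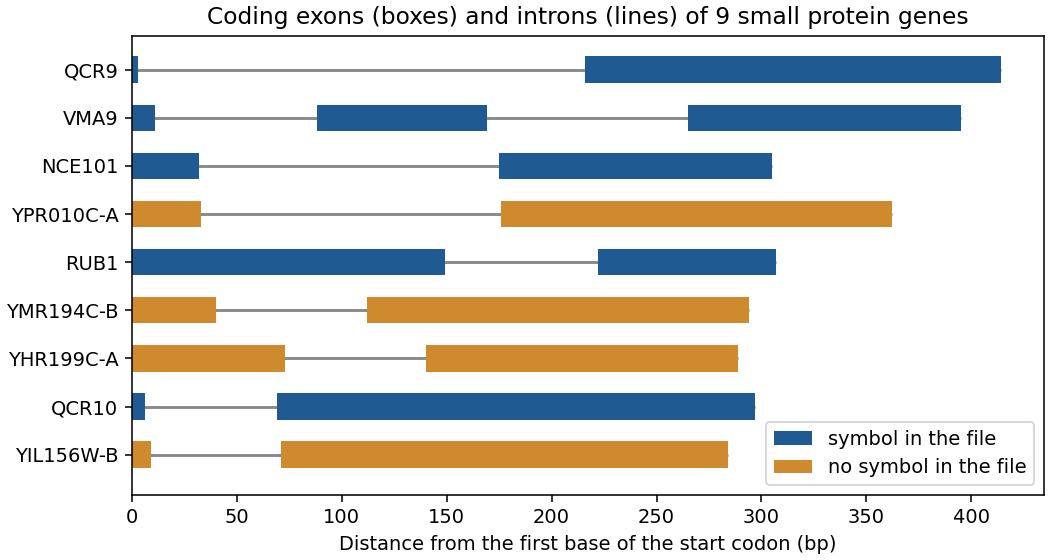
Coding exons as boxes and introns as lines for the 9 small protein genes with an intron, drawn to scale in bp from the start codon (x axis), longest total intron at the top. Blue genes have a symbol in the L03 file and orange genes have one in the RefSeq table alone; QCR9, QCR10 and YIL156W-B begin with an exon of 3, 6 and 9 bp.

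The gene feature of no small protein gene overlapped that of another protein-coding gene. Transcripts were not compared, so untranslated ends of mRNAs were not considered. YOR302W, which the annotation calls an upstream reading frame that regulates translation of the CPA1 mRNA, thus counted as a separate neighbour. It lay 56 bp from CPA1. Reading frames that the annotation calls dubious, 2 of them below 85 codons, counted neither as small protein genes nor as neighbours, so their overlaps are not included. The share overlapping a gene of longer coding sequence by at least 1 bp on either strand was 0 of 210, which allows up to 1.74%, against 23 of 634 mid-length genes (3.63%, 2.31 to 5.39%) and 52 of 4998 long genes (1.04%). Without retrotransposons the long genes had 11 of 4909 (0.224%, 0.112 to 0.401%), so the interval of the small protein genes includes their value. The shortest gene with such an overlap was AUA1, of 285 bp, which shared 167 bp with WWM1. Next came NHP6B, of 300 bp, sharing 157 bp with YBR090C, and YDR114C, of 303 bp, sharing 52 bp with YDR115W.

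**Figure D4:**
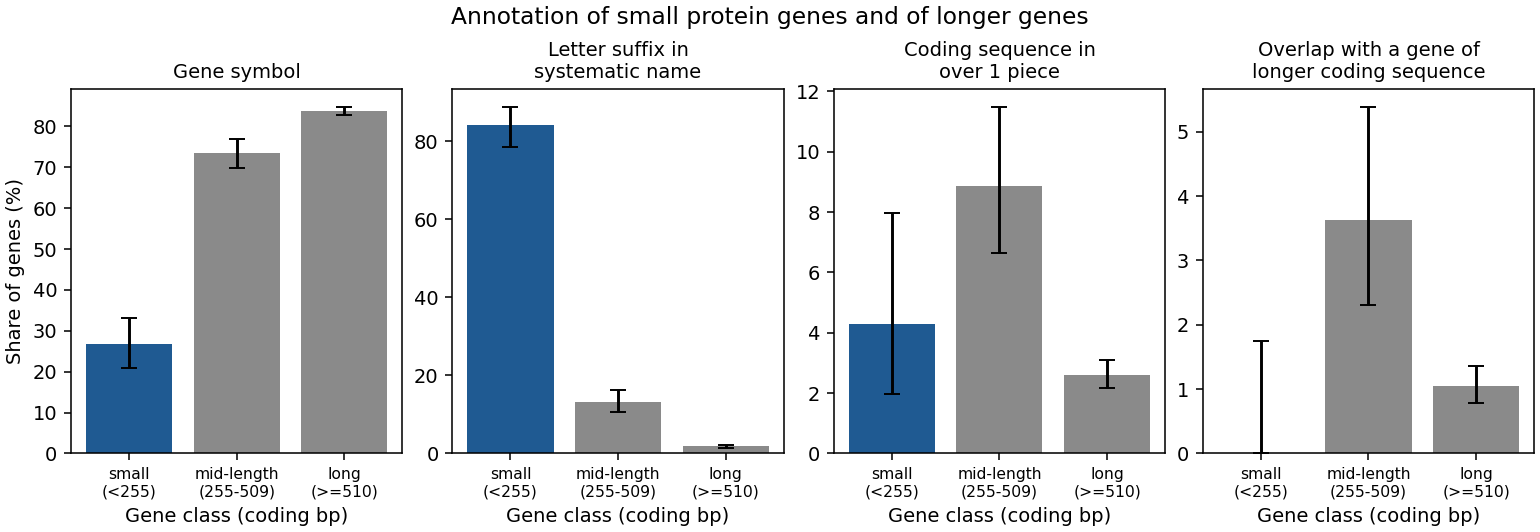
Share of genes in % (y axes, each with its own scale) for small protein genes, mid-length genes and long genes (x axes), with exact 95% intervals as bars. The piece count of mid-length and long genes leaves out ribosomal proteins and retrotransposons, and the other panels keep them. Small protein genes have the lowest share with a symbol (26.7%), the highest with a letter suffix (84.3%) and 0 overlaps with a longer gene.

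Overlaps with features that encode no protein were found in 20 small protein genes, and none of these had a symbol in the L03 file or the RefSeq table. That is 20 of 124 genes with no symbol in either (16.1%, 10.1 to 23.8%), against 0 of 86 genes with one, which allows up to 4.20%. Counting RNA genes, long terminal repeats and replication origins, 18 of 210 small protein genes overlapped a feature (8.57%, 5.16 to 13.2%), against 15 of 634 mid-length genes (2.37%, 1.33 to 3.87%) and 204 of 4998 long genes (4.08%, 3.55 to 4.67%). Without retrotransposons the long genes had 121 of 4909 (2.46%, 2.05 to 2.94%). Transfer RNA genes were overlapped by 4 small protein genes, against 1 of 634 and 0 of 4998 among mid-length and long genes. YOL013W-A and YPR108W-A shared 102 and 72 bp with TP(UGG)O1 and TT(UGU)P on the same strand, and these were the 2 small protein genes with no entry in the RefSeq table. Both could thus have no symbol there and were counted among the 124. YOR072W-B shared 83 bp with SUF11 on the same strand, and YPR159C-A 37 bp with TG(GCC)P2 on the opposite one.

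Ribosomal RNA genes on chromosome XII were overlapped by 5 of the 20. YLR154C-H, YLR156C-A, YLR157C-C and YLR159C-A, each of 132 bp and 43 residues, lay opposite the 5S rRNA genes RDN5-2 to RDN5-5 over 105 bp, or 79.5% of their length. Their starts were 3652, 9580 and 3652 bp apart. Each lay opposite a copy of the same RNA gene, so they share their context, and their sequences were not compared. YLR154C-G, of 150 bp, lay wholly within the 25S rRNA gene on the same strand. Long terminal repeats of retrotransposons were overlapped by 5 genes, of which YMR158C-A (138 bp) and YDR034C-A (177 bp) lay wholly inside one. YOR192C-C (237 bp) shared 162 bp with a repeat on the same strand and 75 bp with a repeat on the opposite strand. YLR157W-E shared 25 bp and YLR157W-D 1 bp, the least that counts as an overlap. YJL047C-A shared 49 bp with the small nucleolar RNA gene SNR60.

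Telomeric X elements and replication origins accounted for the rest. YOL166W-A, YOR394C-A and YCR108C lay in X elements at the ends of chromosomes XV and III. YCR108C, of 192 bp, also lay wholly within the origin ARS319. YMR175W-A shared 176 bp, or 90.3% of its length, with ARS1323, and YKL183C-A shared 173 bp, or 81.2%, with ARS1125.

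Each small protein gene has a gap on either side to the next gene, called tandem when both genes point the same way, divergent when their starts face each other and convergent when their ends do. Of 420 sides, 211 were tandem (50.2%, 45.4 to 55.1%), 111 divergent (26.4%, 22.3 to 30.9%) and 96 convergent (22.9%, 18.9 to 27.2%), and 2 faced a chromosome end. Mid-length genes had 43.2% tandem, 27.9% divergent and 26.0% convergent sides, with 2.37% overlapped, and long genes 47.8%, 25.6% and 25.5%, with 0.840% overlapped (0.438% without retrotransposons). The tandem interval of the small protein genes includes the value of the long genes and excludes that of the mid-length genes. It overlaps the mid-length interval (40.5 to 46.0%). The mid-length total also counts overlapped sides, and the 2 sides of a gene are not independent.

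Pooled over types, median gaps differed between the 3 classes by less than their intervals, while divergent and convergent gaps did not follow the same pattern. The median gap was 376 bp beside small protein genes (interval 339 to 417 bp), 373 bp beside mid-length genes and 372 bp beside long genes. Divergent gaps had a median of 412 bp beside small protein genes (311 to 524 bp), 530.5 bp (484 to 608 bp) beside mid-length genes and 550 bp (525 to 567 bp) beside long genes. Convergent gaps had a median of 290 bp (237 to 351 bp) beside small protein genes, 237.5 bp (208 to 266 bp) and 226 bp (218 to 233 bp) beside mid-length and long genes. For both types the interval of the small protein genes overlapped that of the mid-length genes. For convergent gaps it lay apart from that of the long genes, also without retrotransposons (224 bp, 216 to 232 bp). For divergent gaps it lay apart from that of all long genes and overlapped that of the long genes without retrotransposons, whose median was 545.5 bp. Tandem gaps had medians of 413, 415.5 and 405 bp in the 3 classes, in order of length. Beside small protein genes with a symbol the divergent median was 501 bp and the convergent one 330 bp.

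The shortest gaps belonged to genes without a symbol in the L03 file. The end of YNL146C-A lay 2 bp from that of LSM7, a gene of RNA decay and splicing, and YBL008W-A lay 4 bp from HIR1 in tandem. YKL023C-A lay 5 bp from URA6 in tandem, and the closest divergent pairs were YKL096C-B with CWP2 at 30 bp and YGR204C-A with YGR205W at 38 bp. Of gaps beside genes with no symbol in either source 19 of 246 were under 50 bp (7.72%, 4.71 to 11.8%), against 1 of 172 beside the 86 genes with one (0.581%, up to 3.20%). The 19 include the gaps of 21 bp beside YLR156C-A, YLR157C-C and YLR159C-A. The gap between YLR157C-C and YLR157W-E was counted from both sides. The closest neighbour of a gene with a symbol in the L03 file was GNA1, whose end lay 50 bp from that of SMX2. This distance equals the limit, so 0 of 112 gaps under it beside such genes follows from where the limit was set. These 112 are part of the 172, so the low share there follows in part from the same choice. Beside genes with a symbol in the RefSeq table alone it was 1 of 60 (1.67%, 0.0422 to 8.94%). Mid-length and long genes were not compared at this limit. Among the longest gaps, YHR212W-A was 10122 bp from FLO5 in tandem, YLR154C-G was 7451 bp from TAR1 in convergent and 6155 bp from YLR154C-H in tandem orientation, and YAL067W-A was 4527 bp from SEO1 in convergent orientation. The longest divergent gaps separated YOR072W-B from THI71, by 3192 bp, and YGL006W-A from YGL007C-A, by 2395 bp.

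With the small protein genes set aside, the gaps between the remaining genes were sorted by whether they had held one. Between the remaining genes there were 5552 gaps, and 197 of them (3.55%) held the 208 small protein genes that lay between other genes. The remaining 2, YOL166W-A and YCR108C, lay between the outermost gene and a chromosome end. The median gap holding a small protein gene was 1115 bp long, against 372 bp for empty gaps. Such a gap is made up of the gene in it and the gaps on both its sides, so this difference follows largely from its definition. The gaps directly beside small protein genes had a median of 376 bp, against 373 and 372 bp beside mid-length and long genes. The low shares among short gaps are shaped by the same definition. The share of gaps that held one was 21 of 3503 below 500 bp (0.599%), 60 of 1282 from 500 to below 1000 bp (4.68%) and 64 of 390 from 1000 to below 1500 bp (16.4%). It was 22 of 169 from 1500 to below 2000 bp (13.0%), 17 of 122 from 2000 to below 3000 bp (13.9%) and 13 of 86 from 3000 bp (15.1%), so beyond 1000 bp longer gaps were not occupied more often.

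**Figure D5:**
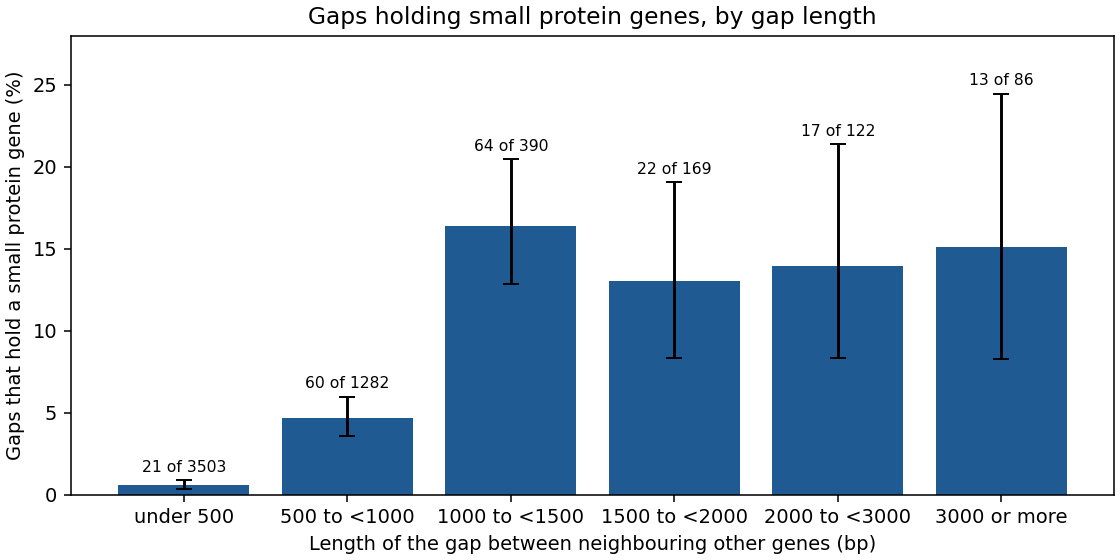
Share of gaps between other genes that held at least 1 small protein gene, in % (y axis), by the length of the gap in bp (x axis), with exact 95% intervals and the counts above each bar. The share climbs to 16.4% at 1000 to below 1500 bp and stays between 13.0% and 15.1% in longer gaps.

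By type, 113 of the 208 lay in gaps between tandem genes (54.3%, 47.3 to 61.2%), 57 in divergent gaps (27.4%, 21.5 to 34.0%) and 38 in convergent gaps (18.3%, 13.3 to 24.2%). Those types made up 48.0%, 26.1% and 25.8% of all gaps, and 49.97%, 34.1% and 15.9% of their summed length. Among gaps of 1000 to below 1500 bp, 28 of 189 tandem gaps (14.8%, 10.1 to 20.7%), 20 of 149 divergent gaps (13.4%, 8.40 to 20.0%) and 16 of 52 convergent gaps (30.8%, 18.7 to 45.1%) held one. From 1500 to below 2000 bp the counts were 12 of 80 tandem (15.0%), 6 of 72 divergent (8.33%) and 4 of 17 convergent gaps (23.5%, 6.81 to 49.9%). From 2000 bp they were 18 of 98 tandem (18.4%), 10 of 87 divergent (11.5%) and 2 of 23 convergent gaps (8.70%, 1.07 to 28.0%), so the order of the types was not the same at all lengths. In tandem gaps with a single small protein gene, 54 of 104 of these genes (51.9%) lay on the strand of their neighbours.

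More than 1 small protein gene lay in 9 gaps. The gap of 2103 bp between AGE1 and RBA50 held YDR524W-C, YDR524C-B and SNA2. That of 1758 bp between DDR48 and ECM5 held PAI3, SIP18 and YMR175W-A, a run of stress-related and unnamed genes in which PAI3 and SIP18 diverge across 650 bp and SIP18 ends 58 bp before YMR175W-A. A gap of 1296 bp between TFB3 and MRPL28 held the pheromone gene MFA1 and YDR461C-A, whose ends lay 237 bp apart. In all, 11 pairs of small protein genes were direct neighbours, 3 tandem, 5 divergent and 3 convergent. The nearest pair was YLR157W-E and YLR157C-C in the ribosomal DNA region, 21 bp apart.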

How the data were processed

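HydEn-seq libraries of 14 strains were labelled by strain; their end counts were not analysed here, so no depth per library is given. Reads were handled with Bowtie 0.12.8 and cutadapt 1.2.1, per the submitters' processing notes. The file used was the authors' deposited annotation of L03, which they derived from S288C R64-1-1, per the file header. It gives type, start, end and strand, numbered from 1, and no measured signal. Coding length was summed over coding exons per mRNA. Gaps ran between gene features, overlap meant at least 1 bp, and 274 origins were taken at their midpoints. Product classes and 18 complex lists were written by hand. Members, lists and tests were chosen with earlier results of these data known. The RefSeq gene table of another build was used for names and biotype alone.

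No test was run, since the features have no replicates; shares and medians carry 95% intervals. Named genes were the shortest, those at the limit, up to 4 symbols per class or list (all 56 are given), all with introns, and the extremes of gaps, origin distance and pairs. Protein features and protein identity, which had been planned, were not analysed here. Parsing was tested on a simulated annotation. Alternatives changed the length limit, gene set, neighbours, overlap rule and gene position, and left out chromosomes. Work used Python 3.11.15, numpy 2.4.6, scipy 1.17.1, pandas 2.3.3 and matplotlib 3.10.9.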

Additional observations from a re-analysis of the deposited data

How the results depend on the processing

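Over 10 results and 212 alternatives, 208 values stayed within the interval of the reported value, or within 1.5 times the reported count, and 4 moved. Many of the alternatives could not move. With 0 overlaps of at least 1 bp, removing genes or asking for a wider overlap gives 0 again. No single chromosome held enough genes to change the count by 1.5 times. The number that stayed therefore says little on its own. Keeping only genes with an experiment qualifier left 56 small protein genes in place of 210 and set the intron share at 8.93%. Raising the limit to 300 bp gave 284 genes and a qualifier share of 35.2%. Counting only neighbours with a qualifier set the median gap at 479.5 bp, since fewer neighbours are counted. At 300 bp the share overlapping a longer gene was 0.352%, from AUA1. A limit of 240 bp gave 196 genes, and keeping ribosomal proteins 223. Leaving out members by the ribosomal RNA genes gave 202 and those within 25 kb of a chromosome end 194, both chosen after seeing the data, as was the comparison with long genes without retrotransposons. With any 1 chromosome left out there were 184 to 207 genes, with intron shares of 3.59 to 4.89%, qualifier shares of 25.4 to 27.8% and overlap shares of 0 to 0%. It gave convergent shares of 22.0 to 24.1%, divergent shares of 25.8 to 27.4%, tandem shares of 47.9 to 51.0% and median gaps of 358.5 to 381 bp. Median origin distances ran from 13.1 to 15.3 kb, and shares pointing away from 48.4 to 51.7%. No paired analysis was possible because no library value was used. The annotation has no depth, and an unannotated small gene is not counted.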

Other observations

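Small protein genes occurred on all 16 chromosomes, at 1.74 per 100 kb. The density was lowest on chromosome XI, with 1.05 per 100 kb (7 genes), and highest on chromosome VIII, with 2.67 (15 genes). Chromosome XV held 26, the largest number, and chromosome VI held 3.

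Their median distance to the nearest replication origin was 14.4 kb (interval 11.5 to 16.9 kb), against 14.4 kb for mid-length genes and 13.4 kb for long genes. The 2 nearest were YMR175W-A, whose midpoint lay 0.029 kb from that of ARS1323, and YKL183C-A, 0.053 kb from ARS1125. The farthest were YOR394C-A, 102.7 kb from ARS1529, and YNR075C-A, 89.9 kb from ARS1427. Of the 210 genes, 106 pointed away from their nearest origin (50.5%, 43.5 to 57.4%), against 55.0% of mid-length genes and 48.9% of long genes.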
